A study of Mus musculus with 8 samples.

Results

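The genes described here are 31 mouse genes of glycolysis and of the transcriptional response to hypoxia, taken by symbol from a fixed list. That list was drawn up with earlier results of these data known. They comprise 17 genes of glucose uptake, glycolysis and lactate handling and 14 genes known for their induction under low oxygen. All 31 were found among the 52459 genes of the bulk count table and among the 31053 genes of the single-cell matrices, and all 31 were among the 16487 genes tested in bulk. The tumors came from FC1242, a mouse pancreatic cancer cell line of the KPC type, a widely used genetic mouse model of this cancer. In every group, C57BL/6 mice had received 100000 FC1242 cells, and tumors were taken after 3 weeks. The primary group was tumors in the pancreas and the liver group was metastatic tumors in the liver, with no further treatment named for either. Bulk RNA-seq comprised 3 libraries per site. A separate 10x single-cell library per site (1 primary, 1 liver) was made after a CD45+ sort, which selects leukocytes. All tumors descend from 1 cell line, and no label says whether the cells of a single-cell library came from 1 mouse or from pooled mice.

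Glycolysis turns glucose into pyruvate in the cytosol, and lactate dehydrogenase and monocarboxylate transporters dispose of the pyruvate as lactate when it does not enter mitochondria. When oxygen is low, prolyl hydroxylases no longer mark the factors HIF-1α and HIF-2α for destruction through the VHL protein. The stabilised factors pair with ARNT and raise transcription of glucose transporters, most glycolytic enzymes, angiogenic factors, mitophagy receptors and the hydroxylases themselves. Pancreatic tumors are known for poor perfusion and low oxygen.

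HIF dimers bind a short core with the letters ACGTG, or less often GCGTG. RefSeq promoter sequences (build GRCm38.p6, from 250 bases before to 50 bases after a gene's start, 300 bases in all) were at hand for 29 of the 31 genes. Bnip3l and Ndrg1 were not among them. ACGTG stood on either strand in a promoter of 22 of the 29 genes (75.9%) and of 5886 of all 27025 genes with a promoter (21.8%). ACGTG or GCGTG stood in 27 of the 29 (93.1%) and in 46.7% of all genes. A match describes letters only, and several genes have more than 1 promoter entry. The 6 windows below, selected with their matches known, are the 100-base stretches around a match in genes that recur in the results: the glucose transporter, 2 glycolytic enzymes and 3 hypoxia-response genes. Capitals mark ACGTG, or CACGT where the core is read from the other strand.
Slc2a1 (chr4:119108645-119108744, plus strand): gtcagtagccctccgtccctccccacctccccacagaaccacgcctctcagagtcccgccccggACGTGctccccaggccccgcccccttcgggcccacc
Hk2 (chr6:82774462-82774561, minus strand): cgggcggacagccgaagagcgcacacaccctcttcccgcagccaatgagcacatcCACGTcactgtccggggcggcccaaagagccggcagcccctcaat
Ldha (chr7:46845704-46845803, plus strand): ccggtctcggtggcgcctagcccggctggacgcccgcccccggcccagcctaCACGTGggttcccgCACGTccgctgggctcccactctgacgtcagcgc
Car9 (chr4:43506926-43507025, plus strand): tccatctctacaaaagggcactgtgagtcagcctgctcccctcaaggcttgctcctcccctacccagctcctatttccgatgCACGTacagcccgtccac
Bnip3 (chr7:138909569-138909668, minus strand): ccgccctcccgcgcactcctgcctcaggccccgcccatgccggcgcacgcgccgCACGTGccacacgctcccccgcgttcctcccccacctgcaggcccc
Ankrd37 (chr8:45999851-45999950, minus strand): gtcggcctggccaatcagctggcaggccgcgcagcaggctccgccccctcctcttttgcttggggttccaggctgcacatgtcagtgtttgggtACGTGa
In Bnip3 and at the first marked match of Ldha the core reads CACGTG, which holds it on both strands.

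In the bulk tumors, 10 of these genes were lower in the liver than in the pancreas, among them the glucose transporter Slc2a1, both hexokinases, Pfkl, Aldoa and Pkm and the hypoxia markers Car9 and Ndrg1. The change in log2 units (liver minus primary, fitted with edgeR's quasi-likelihood test) was negative for 28 of 31 genes, against 54.0% of all genes tested, with a median of -0.61 against -0.07 over all genes tested. The 10 of 31 called lower, at an adjusted p under 0.05 (Benjamini-Hochberg over all genes tested), stood against 6.26% of all genes tested. Only Ak4 was higher (1 of 31, against 16.7%), and 20 were not called in either direction. Every liver library lay below every primary library for 16 of 31 genes, against 20.2% of all genes tested, and above for 1 of 31, against 23.8%. Bulk counts of Gapdh, Pgk1, Pgam1 and Eno1 are uncertain, as described below, and the 16 include Pgam1 and Eno1. In bulk tissue, fewer cells of a type and less RNA per cell cannot be told apart.

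**Figure D1:**
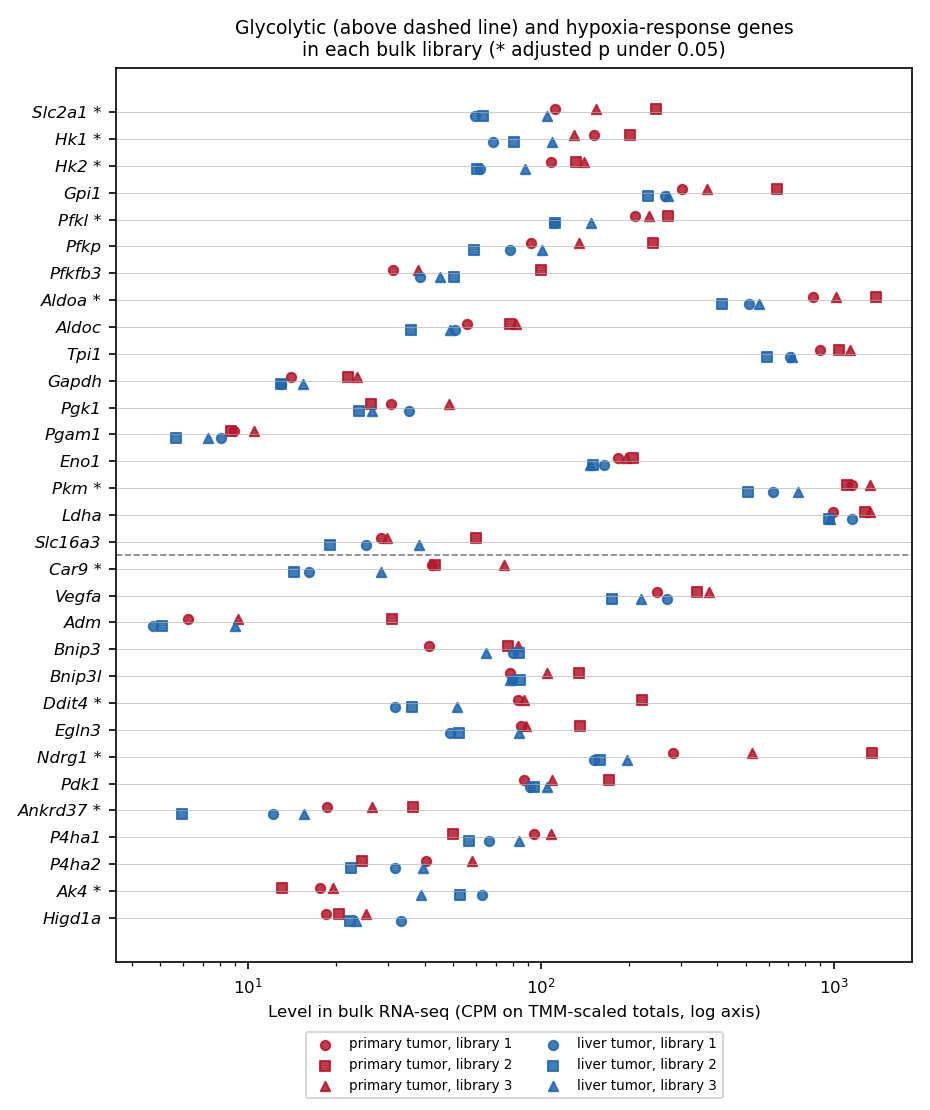
Level of each of the 31 genes in each bulk library, in CPM on TMM-scaled library totals (log axis), with red for primary and blue for liver tumors, 1 symbol shape per library number and an asterisk for an adjusted p under 0.05. In 16 genes all liver symbols lie left of all primary symbols, and primary library 2 (red squares) lies far right of its group in Ndrg1, Adm, Ddit4 and Pfkfb3.

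The call count rested on few libraries. It fell to 0 of 31 without liver library 2 and to 1 without liver library 1. The share of all genes tested called lower was then 0.787% and 2.43%, against 6.26% with all libraries. The count was 5 without primary library 3 (3.6% of all genes) and 7 without primary library 2 (8.62%). It was 10 without primary library 1 (5.19%) and 10 without liver library 3 (4.84%), but only 8 and 9 of these were among the original 10. Without primary library 1, Hk1 and Pkm were lost and Pfkp and Aldoc gained. Without liver library 3, Ndrg1 was lost and Egln3 gained. Over 15 alternative fits, Ak4 was called in 15, Pfkl in 14, Car9 and Ddit4 in 13, Hk2, Aldoa and Ndrg1 in 12, Hk1 and Pkm in 11, and Slc2a1 and Ankrd37 in 9. Changes were negative for 27 to 29 of the 31 genes in each of these 6 fits, and the median ran from -0.50 to -0.76. The libraries of a site differed in a patterned way: primary library 1 was the lowest of its site in 24 of 31 genes and the highest in 0, while liver library 3 was the highest of its site in 20 and liver library 2 the lowest in 17. The coefficient of variation among primary libraries had a median of 27.1% over the members, from 5.71% (Eno1) to 87.7% (Adm), and 23.9% over all genes tested. It exceeded that among liver libraries in 19 of the 31 genes.

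Transcripts of the glucose transporter and of the hexokinases were lower in the liver tumors. Slc2a1, the main glucose transporter of most dividing cells, was measured at 112, 247 and 154 CPM (counts per 1e+06 reads, on TMM-scaled totals) in primary libraries 1, 2 and 3 and at 59.4, 63.3 and 105 in liver libraries 1, 2 and 3. All liver values lay below all primary values, though liver library 3 came close to primary library 1. The log2 change was -1.17 (SE 0.34, adjusted p = 0.0432), a 2.25-fold lower level. Hk1 and Hk2, hexokinases that phosphorylate glucose, followed. Hk1 had 152, 202 and 129 CPM in the primary and 68.8, 80.7 and 109 CPM in the liver libraries, a log2 change of -0.90 (SE 0.25, adjusted p = 0.0361). Hk2 had 108, 132 and 140 CPM against 61.6, 60.3 and 87.9 CPM, a log2 change of -0.86 (SE 0.22, adjusted p = 0.0249). Neither hexokinase had overlapping groups.

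Among the enzymes of the upper pathway, phosphofructokinase of the liver type and aldolase A were called. Pfkl, a catalytic subunit of phosphofructokinase, the committed step, had 209, 271 and 234 CPM in primary and 111, 111 and 148 CPM in liver libraries, with a log2 change of -0.95 (SE 0.21, adjusted p = 0.0144). Aldoa, the aldolase of muscle and most proliferating cells, had 848, 1392 and 1022 CPM against 512, 416 and 557 CPM, with a log2 change of -1.14 (SE 0.27, adjusted p = 0.0205). Gpi1 (glucose-6-phosphate isomerase), Aldoc (the brain-type aldolase) and Tpi1 (triosephosphate isomerase) also had no overlap between groups but missed the threshold, at adjusted p = 0.102, 0.0613 and 0.0984. Pfkp, the platelet-type phosphofructokinase, changed by -0.97 with overlapping groups (adjusted p = 0.0931). Pfkfb3, which makes the activator fructose-2,6-bisphosphate, was at -0.33 (adjusted p = 0.60), and its sign turned to 0.37 without primary library 2, whose 99.95 CPM stood above the 31.15 and 38.07 CPM of the other primary libraries.

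At the end of the pathway, pyruvate kinase was lower and lactate dehydrogenase was not called. Pkm, which encodes the muscle and tumor forms of pyruvate kinase, had 1154, 1111 and 1326 CPM in primary and 621, 510 and 754 CPM in liver libraries. Its groups were far apart, with a log2 change of -0.93 (SE 0.25, adjusted p = 0.0318). Ldha, which reduces pyruvate to lactate, had 996, 1274 and 1332 CPM against 1151, 965 and 970 CPM, and the groups overlapped. Its log2 change was -0.22 with an approximate 95% interval of -0.71 to 0.26 (adjusted p = 0.551). Slc16a3, the lactate exporter MCT4, was at -0.51 (adjusted p = 0.348). On the length-scaled FPKM of the authors, Ldha (mean 359 in primary and 312 in liver tumors), Tpi1 (370 and 245), Aldoa (287 and 132) and Pkm (237 and 126) were the most abundant of the 31 transcripts. Tpi1 had 895, 1046 and 1141 CPM in primary and 708, 593 and 720 CPM in liver libraries.

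For Gapdh, Pgk1, Pgam1 and Eno1, which carry the pathway from glyceraldehyde-3-phosphate to phosphoenolpyruvate, the bulk counts are uncertain. Gapdh had a mean of 4.74 FPKM in the primary tumors, against 287 FPKM for Aldoa, although in single cells it had more UMIs than any other of the 31 genes. Pgam1 had 5.06 FPKM and Pgk1 15.5 FPKM. These genes have many near-identical copies in the genome, and how shared reads were counted is not given in the sources used here. Rows of named copies held few reads (at most 5 for Gapdhs and 4 for Gapdh-ps15 in any library). The changes of the 4 genes were -0.52, -0.30, -0.42 and -0.34, and none was called.

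**Figure D2:**
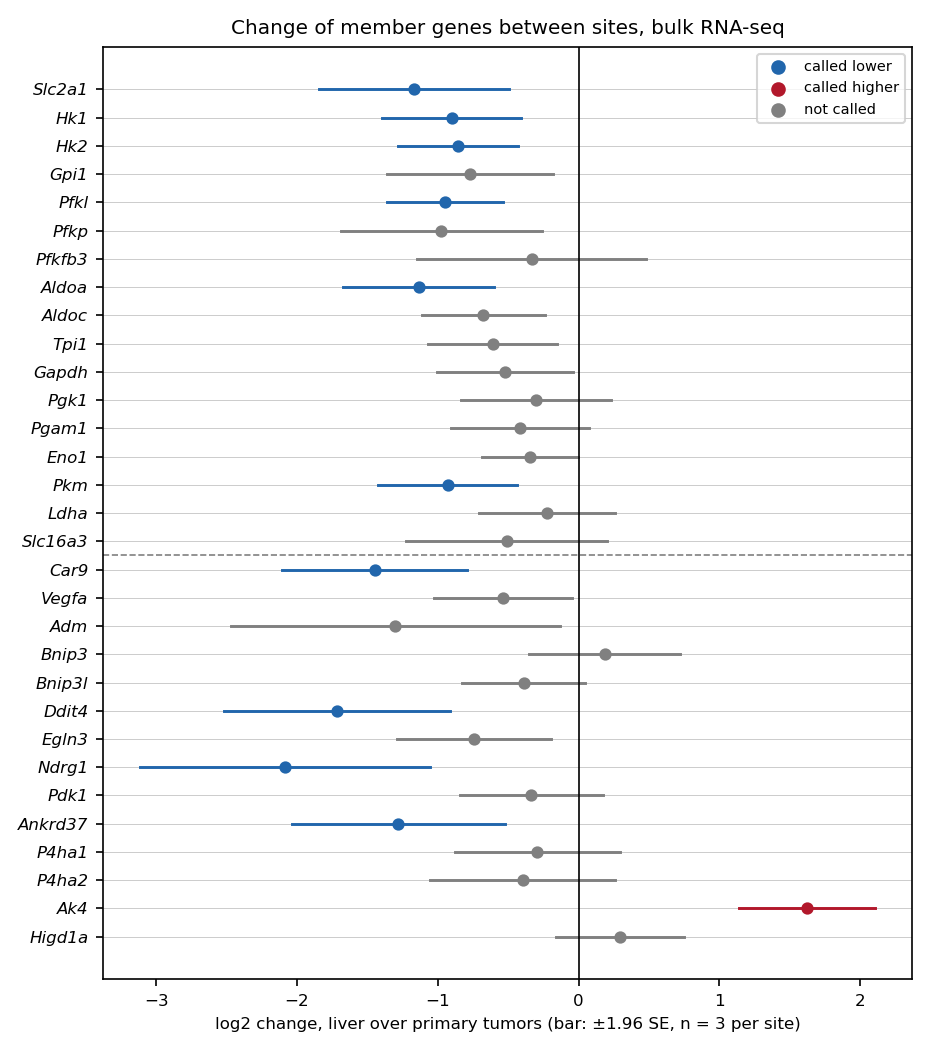
Fitted log2 change of each gene between liver and primary tumors (3 libraries per site), with bars of approximate 95% intervals from the standard errors; blue was called lower, red called higher and grey not called at an adjusted p of 0.05. All 17 glycolytic genes lie left of 0, including Gapdh, Pgk1, Pgam1 and Eno1 with uncertain counts. The hypoxia-response genes run from -2.08 (Ndrg1) to 1.62 (Ak4). The bars are somewhat too narrow. Those of Vegfa, Adm, Gapdh and Eno1 exclude no change, although their unadjusted quasi-likelihood p were 0.065, 0.061, 0.065 and 0.085.

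All 17 glycolytic genes changed in the negative direction (median -0.68), with 6 called. The 17 include Gapdh, Pgk1, Pgam1 and Eno1, whose bulk counts are uncertain and none of which was called. Of the 14 hypoxia-response genes, 11 were negative (median -0.47), 4 were called lower and 1 higher. Over all genes tested, 54.0% were negative (median -0.07), 6.26% were called lower and 16.7% higher. Car9, a cell-surface carbonic anhydrase widely used as a hypoxia marker, had 42.2, 43.4 and 74.9 CPM in primary and 16.1, 14.3 and 28.3 CPM in liver libraries. The groups did not overlap, and the log2 change was -1.45 (SE 0.34, adjusted p = 0.0173). Ankrd37, a small ankyrin protein gene induced by HIF-1, had 18.6, 36.7 and 26.5 CPM against 12.1, 5.94 and 15.5 CPM, a log2 change of -1.28 (SE 0.39, adjusted p = 0.0471).

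Ndrg1 and Ddit4 had the largest bulk changes, and the widest spread among primary libraries of the called genes. Ndrg1, a stress-responsive gene of the N-myc downstream regulated family, had 282, 1348 and 526 CPM in primary and 152, 160 and 197 CPM in liver libraries. Primary library 2 stood 4.78-fold above primary library 1, yet all primary values exceeded all liver values. The log2 change was -2.08 (SE 0.53, adjusted p = 0.0249), and it was not called without any 1 of the liver libraries. Ddit4, encoding the mTOR inhibitor REDD1, had 83.2, 221 and 87.4 CPM against 31.6, 36.2 and 51.6 CPM. Its log2 change was -1.71 (SE 0.41, adjusted p = 0.0199).

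Vegfa and Bnip3, a textbook pair of HIF targets, were not called in bulk. Vegfa, the main angiogenic growth factor, had 248, 341 and 373 CPM in primary and 269, 174 and 220 CPM in liver libraries, so that liver library 1 lay above primary library 1. Its log2 change was -0.54 (adjusted p = 0.162). The approximate 95% interval of -1.03 to -0.04 is too narrow. It excludes no change, although the unadjusted p of the quasi-likelihood test was 0.065. Bnip3, a mitophagy receptor, had overlapping groups at 41.3, 77.0 and 83.2 CPM against 80.1, 84.4 and 64.7 CPM, and its change of 0.19 (adjusted p = 0.665) became -0.0695 without primary library 1. Adm (adrenomedullin, a vasodilator peptide) had a change of -1.30 with an SE of 0.60 (adjusted p = 0.156). Its 31.1 CPM in primary library 2 compared with 6.196 and 9.20 in the other primary libraries.

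Of the remaining hypoxia-response genes, Ak4 alone was called. Egln3, a HIF prolyl hydroxylase itself induced by HIF, had every liver value below every primary value and missed the threshold (-0.74, adjusted p = 0.0931). Bnip3l (a mitophagy receptor related to Bnip3), Pdk1 (which restrains entry of pyruvate into mitochondria), P4ha1 and P4ha2 (collagen prolyl hydroxylases) ranged from -0.40 to -0.29, and Higd1a, a mitochondrial protein gene, was at 0.30, all with overlapping groups. Ak4, a mitochondrial adenylate kinase, went the other way. It had 17.6, 13.0 and 19.4 CPM in primary and 62.8, 52.7 and 38.9 CPM in liver libraries. The groups lay far apart, and the log2 change was 1.62 (SE 0.25, adjusted p = 0.00227).

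Markers of other cell types moved with these differences. The 15 hepatocyte markers took 0.0187% to 0.0701% of reads in primary and 6.51% to 10.5% in liver libraries, and all 15 were higher in the liver. Of 15 epithelial markers, which the tumor cells carry, 12 had negative changes (median -1.04) and 5 were called lower, among them Msln (-1.46), while Cldn3 was called higher (8.54). Their summed level was 4480, 13502 and 5790 CPM in primary and 3444, 3335 and 3115 CPM in liver libraries, with primary library 2 the highest. Relative to the epithelial markers of the same library, the mean log2 level of the 31 genes was 0.52, 0.01 and 0.38 in primary libraries. In liver libraries it was -0.04, -0.07 and 0.43, so the groups overlapped. The mean log2 level of the epithelial markers was 5.87, 6.97 and 6.39 in primary and 6.15, 6.00 and 5.88 in liver libraries. This mean includes Cldn3, whose change of 8.54 raises it in the liver libraries. A comparison without Cldn3 was not made. As a plain share of reads, the 31 genes took 0.801%, 1.02% and 0.983% in primary and 0.395%, 0.339% and 0.507% in liver libraries. Of 15 monocyte or macrophage markers 10 were higher, at 0.0908% to 0.190% of reads in primary and 0.757% to 1.29% in liver libraries, as were 10 of 13 dendritic, 10 of 12 B cell, 6 of 10 fibroblast and 5 of 10 endothelial markers. Adrenal and islet markers stood out in primary library 1, the lowest primary library for most members: adrenal markers summed to 952 CPM there against 37.8 and 23.8 CPM in primary libraries 2 and 3, and islet markers to 183 CPM against 15.3 and 14.5 CPM. The part of these cell types and of tumor cell content in the changes was not tested.

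The wider pathway lists moved in both directions, beside 16.7% of all genes tested called higher and 6.26% called lower. Of 21 other tested genes of glycolysis, 6 were higher and 3 lower, the latter Hkdc1 (-1.43) and Pfkm (-0.84), which phosphorylate glucose and fructose-6-phosphate, and Bpgm (-1.26), which makes 2,3-bisphosphoglycerate. Slc2a2 (the GLUT2 transporter, 8.87), known from hepatocytes, was called higher with an adjusted p of 3.10e-05, and so was Pfkfb1 (3.67), the liver-type bifunctional enzyme. Of 7 gluconeogenic genes 4 were higher, among them Fbp1 (13.11), Pck1 (11.41) and G6pc (8.13), and Pck2, the mitochondrial form, was lower (-0.74). Of 38 other HIF targets, 5 were higher and 5 lower, with a median of -0.25. Rora (4.12), a nuclear receptor, and Gbe1 (2.47), the glycogen branching enzyme, rose, whereas Hilpda (-1.46), a lipid droplet protein gene, and Cxcr4 (-1.17), a chemokine receptor, fell.

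The oxygen-sensing genes themselves mostly were not called in bulk. Among 13 tested genes of the HIF machinery only Epas1, which encodes HIF-2α, was called, and it was higher (1.51, SE 0.30, adjusted p = 0.00921). Its CPM were 45.9, 82.4 and 45.8 in primary and 156, 213 and 128 in liver libraries, with no overlap. Hif1a was at -0.12 (approximate 95% interval -0.70 to 0.46, adjusted p = 0.809). Of 25 genes of oxidative phosphorylation 0 were lower and 3 higher (Sdha, Sdhb and Atp5j; 5 had an unadjusted p under 0.05), with a median of 0.40 and 21 positive, a smaller share called higher than the 16.7% of all genes tested. Of 16 genes of pyruvate entry and the citric acid cycle 5 were higher, led by Fh1 (1.32) and Pdk4 (4.23), and of 8 pentose phosphate genes H6pd alone was higher (2.10).

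Within single cells, the same genes were compared by cell class. After filtering there were 2272 primary and 7617 liver cells, with a median of 12032 and 6750 UMIs, and 7 barcodes occurred in both libraries. Over the UMI minimum, 69.5% of primary and 39.1% of liver barcodes exceeded the mitochondrial limit and were left out. Although the labels give a CD45+ sort, epithelial tumor cell-like clusters made up 321 primary cells (14.1%) and 3529 liver cells (46.3%). These had 3199 and 3699 CPM of Krt8 and only 8.50 and 17.03 CPM of Ptprc, the gene for CD45, against 1016 and 901 CPM of Ptprc in neutrophil-like cells. The other classes with at least 50 cells in each library were monocyte or macrophage-like (1513 and 3105), neutrophil-like (221 and 519) and T cell-like (129 and 162). With 1 library per site there is no test between sites. Ratios were formed from summed UMIs, and intervals cover counting error only. Handling of the 2 libraries and tumor site cannot be told apart.

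Epithelial tumor cell-like cells had lower levels of all 31 genes in the liver library, with a median log2 ratio of -1.34 against -0.07 for all genes with at least 30 UMIs. More than 2-fold lower were 20 of 31 genes, against 6.34% of all such genes, and 0 were more than 2-fold higher, against 6.81%. The hypoxia-response genes showed larger ratios (13 of 14 past 2-fold, median -2.16) than the glycolytic genes (7 of 17, median -0.96). The hypoxia-response genes summed to 2222 CPM (95% interval 2177 to 2267) in the primary library and 555 CPM (546 to 563) in the liver library, and the glycolytic genes to 11187 and 6277 CPM. Cluster 4, with 52 primary and 366 liver cells, was 16.2% of the primary cells of the class and 49.4% of their UMIs, and 10.4% and 36.97% in the liver library. Without it, 13 of 31 genes were more than 2-fold lower, with a median of -0.86 and 30 negative. The hypoxia-response sum was then 1088 CPM in primary and 474 CPM in liver cells, and the glycolytic sum 9227 and 5684 CPM. Without cluster 11, which held 6 primary and 1038 liver cells, the count was 17 with a median of -1.26. The share of 6.34% of all genes holds for the whole class. The shares without cluster 4 or cluster 11 are not given here.

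**Figure D3:**
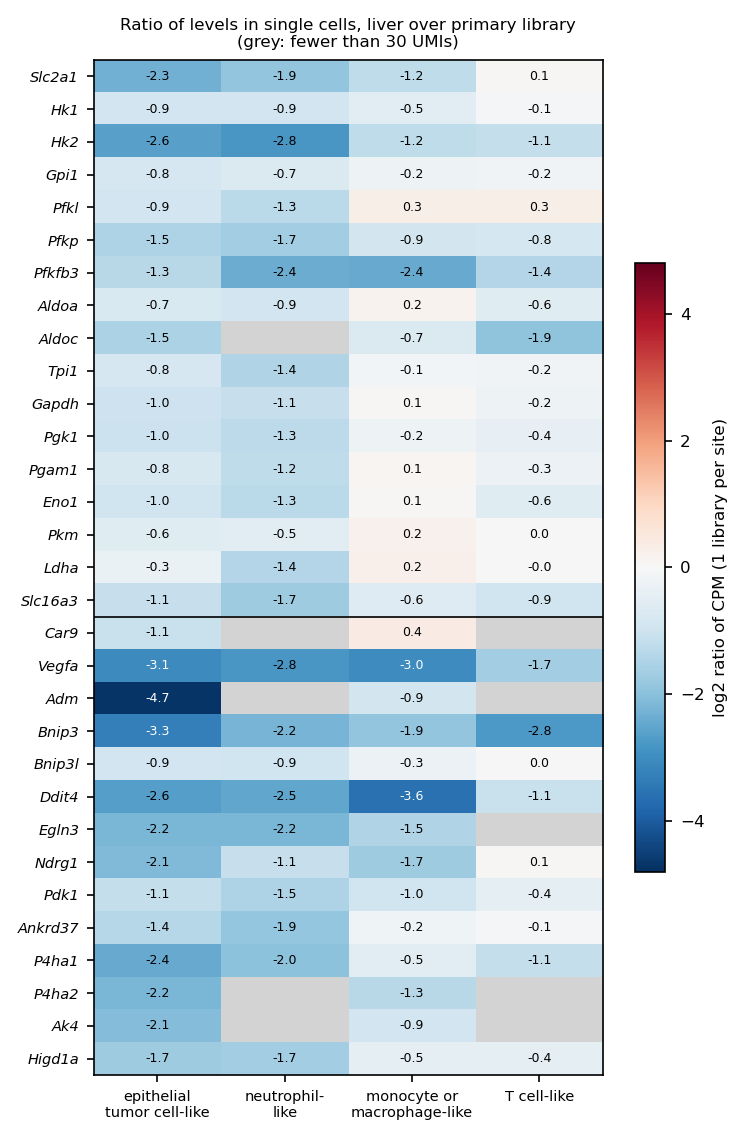
Log2 ratio of the level in the liver library over that in the primary library for each gene (rows; glycolytic above the line, hypoxia-response below) in 4 cell classes (columns), with grey where a class had fewer than 30 UMIs. Epithelial tumor cell-like and neutrophil-like cells are blue (lower in liver) throughout. In T cell-like cells 14 of 17 glycolytic genes lie below 0, with a median of -0.28.

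Among single genes in the epithelial tumor cell-like cells, Vegfa had 287 CPM (271 to 303) in the primary and 34.4 CPM (32.2 to 36.6) in the liver library, an 8.35-fold lower level, but cluster 4 held 91.3% of its primary UMIs, and without it the levels were 49.5 and 13.1 CPM (3.76-fold). Ddit4 and Bnip3 depended less on that cluster: Ddit4 went from 123 to 19.8 CPM (6.21-fold, and 5.85-fold without it) and Bnip3 from 211 to 21.8 CPM (9.67-fold, and 6.75-fold without it). Adm went from 114 to 4.37 CPM, with levels of 7.93 and 0.783 CPM without cluster 4. Slc2a1, at 155 against 31.03 CPM, had 94.5% of its primary UMIs in cluster 4 and no longer passed 2-fold without it (16.8 against 11.8 CPM, 1.42-fold). P4ha1 likewise went from 71.1 against 13.3 CPM to 13.5 against 6.94 CPM (1.95-fold), whereas Hk2, at 106 against 17.4 CPM, remained past 2-fold at 28.0 against 12.0 CPM (2.34-fold). Car9 was 2.11-fold lower, but its log2 ratio of -1.08 turned to 0.53 without cluster 4. Ldha had the smallest ratio of the class (-0.33; 991 and 786 CPM), followed by Pkm (-0.57) and Aldoa (-0.75).

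Bulk and single-cell values were unlike for Bnip3, Vegfa and Ak4, among other genes. Bnip3 and Vegfa were not called in the bulk tumors, yet had some of the largest ratios in the epithelial tumor cell-like cells. Ak4, higher in the bulk liver tumors, had 12.3 CPM (9.17 to 16.1) in primary and 2.89 CPM (2.30 to 3.59) in liver epithelial tumor cell-like cells and 6.58 against 3.47 CPM in monocyte or macrophage-like cells. The bulk tumors and the sorted cells are different samples, and their difference was not tested.

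**Figure D4:**
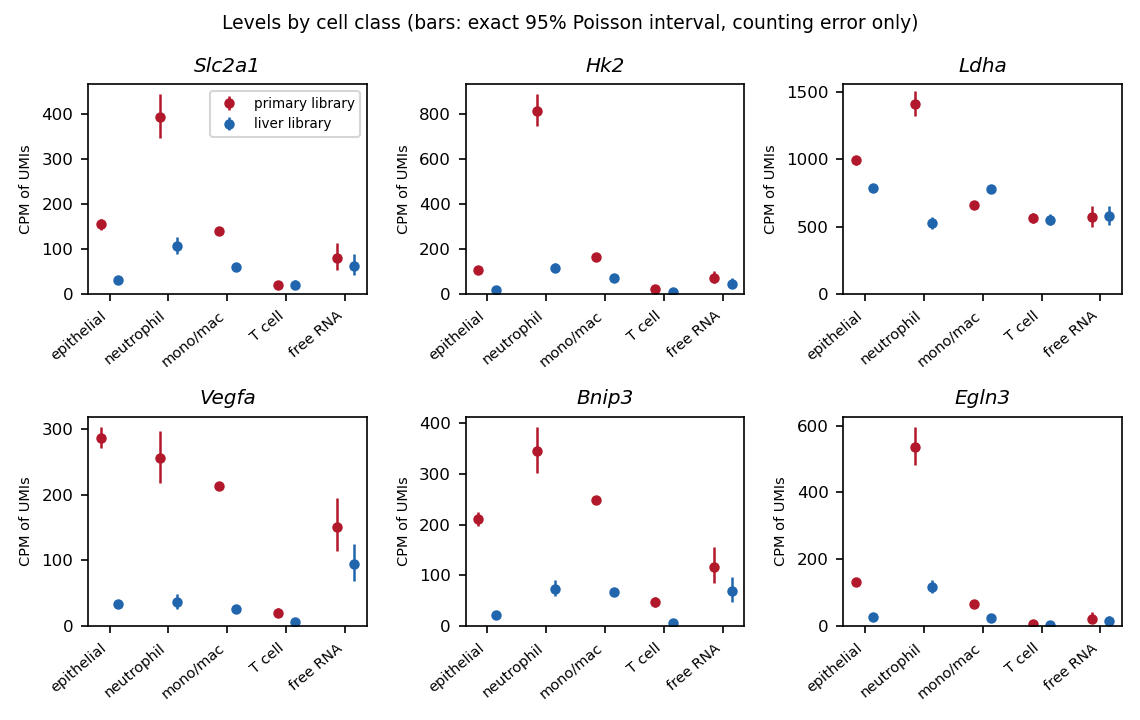
Level of 6 genes (CPM of summed UMIs) in 4 cell classes and in free RNA (barcodes of 10 to 100 UMIs), red for the primary and blue for the liver library, with exact 95% Poisson intervals that cover counting error only. Primary neutrophil-like cells have the highest Slc2a1, Hk2, Ldha, Bnip3 and Egln3, and liver Vegfa lies between 26.6 and 36.8 CPM in epithelial, neutrophil-like and macrophage-like cells.

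Neutrophil-like cells, which rely on glycolysis, had the highest summed level of the 31 genes in the primary library among the 4 classes. Of 26 genes with enough UMIs, 21 were more than 2-fold lower in the liver library, against 9.48% of all such genes, and 0 more than 2-fold higher, against 16.9%. All 26 were negative, with a median of -1.46 against 0.12 for all genes. The glycolytic genes summed to 13147 CPM in primary and 5725 CPM in liver cells, and the hypoxia-response genes to 2825 and 837 CPM. Hk2 went from 816 CPM (748 to 888) to 117 CPM (98.4 to 138), Egln3 from 537 to 117 CPM and Slc2a1 from 393 to 107 CPM. Ldha, little different in epithelial tumor cell-like cells, went from 1410 to 526 CPM here. The liver cells of this class also held 1213 CPM of the keratin gene Krt8, against 131 CPM in the primary cells. Krt8 differed likewise in monocyte or macrophage-like (266 against 33.3 CPM) and T cell-like cells (528 against 15.7 CPM). The part of RNA from epithelial cells in the ratios of the immune classes was not tested.

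Monocyte or macrophage-like cells differed in the hypoxia-response genes and less in the glycolytic genes. Past 2-fold lower were 9 of 31 genes, against 9.05% of all such genes, and 0 were higher, against 10.8%. Among hypoxia-response genes 6 of 14 passed and 13 were negative (median -0.95), and their sum went from 1424 to 638 CPM. The glycolytic sum was 8278 CPM in primary and 8149 CPM in liver cells, with a median ratio of -0.23. Ddit4 went from 136 to 11.5 CPM, Vegfa from 213 to 26.6 CPM and Pfkfb3 from 149 to 27.7 CPM, whereas Gapdh, Pkm, Ldha and Aldoa had ratios of 0.05 to 0.24. Different clusters held most of the class in the 2 libraries: clusters 1, 6 and 2 in the primary and clusters 7, 9 and 2 in the liver library. Clusters 2, 6 and 9 had at least 50 cells of each library, and the glycolytic sum was lower in their liver cells. It was 12613 against 11102 CPM in cluster 2, 7540 against 6117 CPM in cluster 6 and 6163 against 5802 CPM in cluster 9. Cluster 1 had 758 primary and 22 liver cells, and without it Ddit4 was at 56.6 and 11.2 CPM, Vegfa at 110.1 and 25.98 CPM, and 10 of 31 genes passed. The share of all genes without cluster 1 is not given here.

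T cell-like cells had 7 of 26 genes past 2-fold lower, against 4.35% of all such genes, and 0 higher, against 3.21%. The 7 were Bnip3 (47.2 against 6.98 CPM), Aldoc, Vegfa, Pfkfb3, Hk2, P4ha1 and Ddit4. Of the 26, 21 were negative, with a median of -0.40 against -0.08 for all genes. The glycolytic genes summed to 5515 CPM in primary and 4581 CPM in liver cells, with 14 of 17 negative (median -0.28). Pkm (538 and 539 CPM) and Ldha (565 and 553 CPM) were close to 0, while Aldoa and Eno1 had ratios of -0.58 and -0.59. Some of these levels lie below those in free RNA, for which barcodes of 10 to 100 UMIs were summed: Vegfa was at 151 and 93.9 CPM there and at 19.7 and 6.11 CPM in T cell-like cells. In free RNA the glycolytic genes summed to 5112 and 5156 CPM and the hypoxia-response genes to 852 and 638 CPM. Liver Vegfa also lay below liver free RNA in epithelial tumor cell-like, neutrophil-like and monocyte or macrophage-like cells. Primary Vegfa in these classes lay above primary free RNA. The hypoxia-response sum of liver epithelial tumor cell-like cells was likewise below that of liver free RNA.

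**Figure D5:**
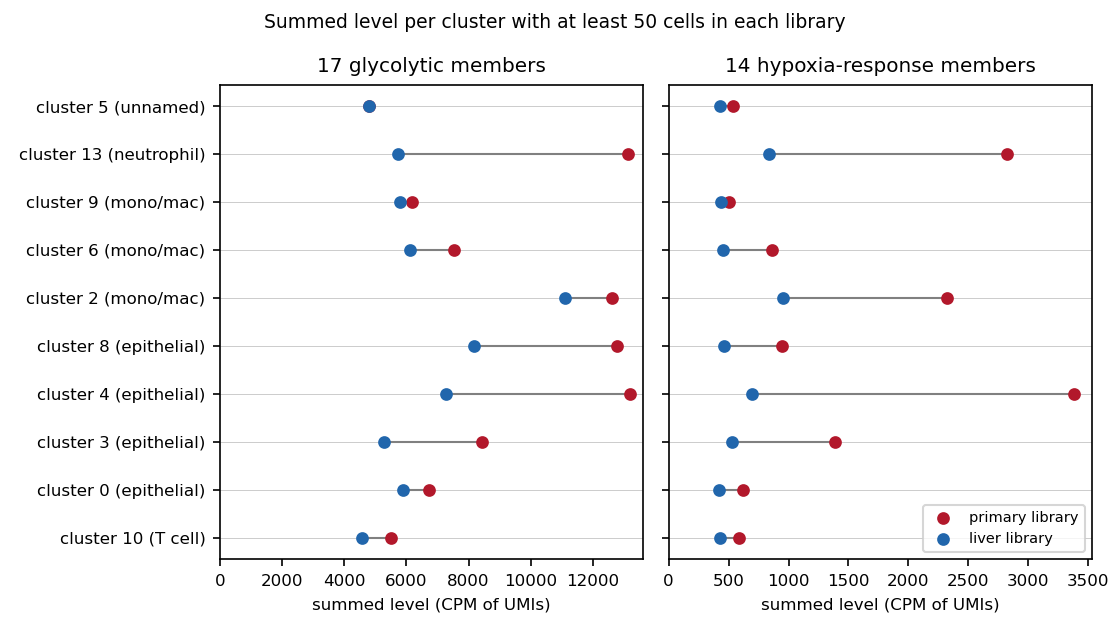
Summed level of the 17 glycolytic genes (left) and of the 14 hypoxia-response genes (right) in each cluster with at least 50 cells in both libraries, red for the primary and blue for the liver library, in CPM of UMIs; a line joins the 2 values of a cluster. The liver value of the hypoxia-response genes is the lower one in all 10 clusters, most widely in clusters 4, 13 and 2, and the 2 values nearly coincide for the glycolytic genes in cluster 5.

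Cluster by cluster, which uses no cell class names, the size of the difference varied within a class. Of the epithelial tumor cell-like clusters with at least 50 cells of each library, cluster 4 had 22 of 31 genes past 2-fold lower (median -1.44) and cluster 3 had 12 of 25 (median -0.99), against 5.94% and 6.83% of all genes in those clusters. Cluster 8 had 5 of 27 (median -0.70) and cluster 0, led by cell cycle genes, 5 of 24 (median -0.28), against 2.18% and 9.83% of all genes in those clusters. The medians over all genes were 0.05 in cluster 4, -0.16 in cluster 3, 0.45 in cluster 8 and -0.16 in cluster 0. In cluster 8, 23.4% of all genes were more than 2-fold higher. The hypoxia-response sum in cluster 4 was 3383 CPM in primary and 692 CPM in liver cells, and in cluster 0 it was 617 and 416 CPM. Macrophage-like clusters 2 and 6 had medians of -0.62 and -0.65, and cluster 9, high in C1q genes, -0.20. The medians over all genes there were 0.02, -0.12 and -0.05. Cluster 5, which carried B cell and dendritic cell genes and was left unnamed, had 2 of 25 genes past 2-fold lower, against 4.10% of all genes.

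Most other HIF targets stood in the same direction as the members, and oxidative phosphorylation genes did not. Of 33 other HIF targets with enough UMIs in epithelial tumor cell-like cells, 20 were more than 2-fold lower and 0 higher (median -1.34), against 6.34% and 6.81% of all genes. Without cluster 4 the count was 17 (median -1.05), with no share of all genes given for those cells. They included Pgf (91.4 to 9.31 CPM, and 19.1 to 2.29 without cluster 4), Ero1l (308 to 35.8 CPM, and 41.5 to 17.1) and Hilpda (233 to 53.9 CPM, and 64.4 to 25.5). In neutrophil-like cells 16 of 21 were lower and 0 higher, against 9.48% and 16.9% of all genes. In monocyte or macrophage-like cells 11 of 34 were lower and 3 higher, the latter Hmox1, Plin2 and Angptl4. The shares over all genes were 9.05% and 10.8%. The summed level of the list in this class was 2969 CPM in primary and 2987 CPM in liver cells. In T cell-like cells 6 of 22 were lower and 2 higher, against 4.35% and 3.21% of all genes. Hif1a was more than 2-fold lower in epithelial tumor cell-like (149 to 58.0 CPM), neutrophil-like (408 to 196 CPM) and monocyte or macrophage-like cells (360 to 175 CPM). Of 24 oxidative phosphorylation genes 0 were more than 2-fold lower in any of the 4 classes, against 4.35% to 9.48% of all genes. More than 2-fold higher were 7 in neutrophil-like cells (16.9% of all genes) and 1 in monocyte or macrophage-like cells (10.8%). Medians were 0.30 in epithelial tumor cell-like and 0.81 in neutrophil-like cells.

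Genes known to respond to tissue dissociation moved with the single-cell differences. Of 16 such genes, added after earlier results were seen, 10 were more than 2-fold lower in the liver epithelial tumor cell-like cells (median -1.46). The share over all genes was 6.34%. Among the 10 were Dusp1 (107 to 16.01 CPM) and Fos (a log2 ratio of -1.60). Without cluster 4 the count was 7, with a median of -0.62 and no share of all genes given for those cells. In neutrophil-like cells 9 of 16 were lower (9.48% of all genes), in monocyte or macrophage-like cells 5 of 16 (9.05%) and in T cell-like cells 3 of 12 (4.35%). The part of cell handling in the ratios of the 31 genes was not tested.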

How the data were processed

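Bulk libraries (3 primary, 3 liver) held 27481390 to 36743247 reads. The authors deposited raw read counts per gene, and the FPKM they deposited equal the count times 1 factor per library over 1 constant per gene (tested on the files). Submitters' processing notes name bcl2fastq, Cell Ranger and mm10, and the bulk aligner and counting tool are not given in the sources used here. Counts were fitted in edgeR 4.0.16 (R 4.3.3; filterByExpr, TMM, robust quasi-likelihood, two-sided, site alone), with Benjamini-Hochberg adjustment over all 16487 genes at 0.05. SE is the log2 change over the square root of F. The approximate bulk intervals take a normal multiple of this SE, so they are narrower than the test implies with so few libraries. Nothing says which mice the replicates came from, so p-values measure the spread between these samples.

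The UMI counts deposited per barcode (82083967 primary and 161890665 liver UMIs) were filtered to at least 1500 UMIs, 200 genes and at most 10% mitochondrial UMIs. Scrublet marked 5 of 2277 primary and 1 of 7618 liver barcodes. That share is too low for the caller to have worked in the liver library, so doublets there were in effect not removed. Cells of both libraries were clustered in scanpy 1.11.5 (2000 variable genes without any gene of the pathway lists, 30 components, 15 neighbors, Leiden resolution 1). A cluster was named from at least 3 markers over 2-fold above the median cluster of its library, and left unnamed where markers of another class led its 10 leading genes. The marker lists stayed as they were, but the scoring of clusters was revised several times after clusters and ratios had been seen. Summed UMIs are given as CPM with exact 95% Poisson intervals. A ratio needed 30 UMIs over both libraries and 50 cells in each, and a count under 3 was set to 3.

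Library values are given for every member called in bulk, the 6 of highest FPKM, and Slc2a1, Car9 and Vegfa; up to 4 called genes by p-value are named from other lists. Other genes and examples were chosen with values known. The members and lists were chosen with earlier results of these data known. Tests were also tried on simulated data, which for bulk used the dispersions fitted to these data. Alternatives were other scalings, DESeq2 1.42.0, limma 3.58.1, other filters, pseudocounts of 1 and 0.1 on FPKM, a replicate block, leaving out each library, and other cell filters, resolution, fold and clusters left out, the last added after the data were seen. Results for some genes of the wider lists are not reported here.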

Additional observations from a re-analysis of the deposited data

How the results depend on the processing

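The count of members called lower in bulk (10) ran from 0 to 10 when 1 library was left out. Without liver library 2 it was 0, where 0.787% of all genes were called lower and 10 members had an unadjusted p under 0.05. The count was 1 without liver library 1 (2.43% of all genes) and 5 without primary library 3 (3.6%). It was 8 to 12 under 9 other settings, including 9 with the replicate block, in which Ankrd37 lost its call. Same-numbered libraries deviated together only in part (correlations of -0.19, 0.27 and 0.10, and primary library 1 correlated best with liver library 3), so the numbers were not taken as a pairing. Ak4 was the 1 member called higher in every fit. Over all genes, 1032 were lower and 2755 higher; upper-quartile factors gave 1689 and 2612, and leaving out liver library 2 gave 134 and 1810. With 1 library left out, the log2 change of Pfkfb3 ran from -0.63 to 0.37 (positive without primary library 2) and the log2 change of Bnip3 from -0.0695 to 0.37 (negative without primary library 1). In single cells, the neutrophil-like count (21) was 13 at a minimum of 3000 UMIs, which left 79 primary and 75 liver cells, the monocyte or macrophage-like count (9) was 15 at a 1.5-fold threshold, and the epithelial tumor cell-like count (20) was 13 without cluster 4, where Car9 was at 0.53. The causes were not tested. The other counts of members by class that were recomputed stayed within 1.5 times. T cell-like cells gave no value at a 5% mitochondrial limit. Of the levels by class, 301 of 1364 alternative values left the counting interval, most (94) at the 5% limit. Neutrophil-like and T cell-like cells each had 5 members under 30 UMIs, for which no ratio is given.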
